A study of Mus musculus with 18 samples.

Results

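Cell adhesion genes were followed through 3 h of phorbol ester treatment in mouse embryonic fibroblasts with and without Dusp5. The set was a list of 32 gene symbols for integrin subunits, cadherins, catenins and immunoglobulin-type adhesion molecules. Its probes were found by symbol in the platform's probe annotation. No measured value entered this rule, but the list was chosen with earlier results of these data known. It was read by 79 of the 45281 probes. Of the 32 genes, 29 had a probe that passed the detection filter (detection p below 0.05 on at least 3 of 18 arrays) and were tested among 10902 genes, and 21 were detected on all 18 arrays. The cells were primary fibroblasts from male C57BL/6 littermate embryos of day 13.5, either wild type or Dusp5 knockout, and Dusp5 encodes a nuclear phosphatase that acts on the kinase ERK. Both genotypes were given TPA, a phorbol ester that activates protein kinase C and through it ERK, at 100 ng/ml for 1 h or 3 h, or were left at 0 h. Each of the 6 groups had 3 arrays (Illumina bead arrays, total RNA). The labels do not say whether the triplicates came from separate embryos or cultures, nor how many embryos gave the cells, so each p-value reflects the spread among these 3 arrays a group, part or all of which may be technical.

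Integrins are receptors made of an alpha and a beta subunit that hold cells to the extracellular matrix. The alpha subunit sets much of the ligand choice: Itga1, Itga2 and Itga11 bind collagens with Itgb1, Itga3, Itga6 and Itga7 bind laminins, and Itga5 pairs with Itgb1 as the main fibronectin receptor. Classical cadherins join neighbouring cells by binding their own kind, and are held at the membrane by p120-catenin (Ctnnd1) and tied to actin through beta-catenin (Ctnnb1) and alpha-catenin (Ctnna1). Icam1 and Vcam1 are ligands for leukocyte integrins, whereas Ncam1, Alcam and Mcam mediate contacts between tissue cells.

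Between 16675 and 18348 probes were detected per array, and mean intensity ranged from 235.7 to 357.1. The Dusp5 probe was lower in the knockout by 0.89 at 0 h, 0.97 at 1 h and 0.65 at 3 h (log2 differences, adjusted p = 6.7e-06, 1.9e-06 and 0.00014). It was detected on every knockout array and rose with TPA there too, with group means of 8.32 at 0 h, 10.18 at 1 h and 9.94 at 3 h. In wild type the means were 9.20, 11.15 and 10.60. Where the probe lies in the gene, inside or outside what was deleted, is not given in the sources used here. Of 10 fibroblast markers, 9 were detected on all 18 arrays. Of 8 epithelial markers 3 were detected on all arrays and 3 on none (Epcam and Krt5 among them), of 7 endothelial markers 1 on all, 4 on some and 2 on none (Tie1 and Cldn5), and of 8 leukocyte markers with a probe 5 on all, 1 on some and 2 on none (Ptprc and Itgam). In bulk samples a change in the number of cells of a type and a change in RNA per cell cannot be told apart.

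At 3 h of TPA, the collagen-binding subunit Itga2 rose in both genotypes while the cadherins Cdh3 and Cdh11 and the cadherin partner Ctnnd1 fell. In wild type, 6 of the 29 members (20.7%) were called at adjusted p below 0.05, 2 higher (Itga2, Itgb3) and 4 lower (Cdh2, Cdh3, Cdh11, Ctnnd1), where 16.0% of all tested genes were called, 7.81% higher and 8.19% lower. In the knockout 10 members (34.5%) were called, with Itga2, Itga5, Itga6, Itgb3 and Icam1 higher and Itgb5, Cdh3, Cdh11, Ctnnd1 and Vcam1 lower, against 18.4% of all genes (8.25% higher and 10.1% lower). The members called in both genotypes were 5, in the same direction, which is 5 of the 6 called in wild type and 5 of the 10 called in the knockout. The median log2 change over the 29 members was -0.11 in wild type and 0.04 in the knockout, beside 0.01 and -0.02 over all genes. With median scaling in place of quantile normalization, the wild-type calls became 1 higher and 13 lower and the knockout calls 2 higher and 5 lower, while the median of all genes itself moved by -0.31 and -0.12. Of all genes, 2.38% were then called higher and 41.8% lower in wild type, and 3.92% and 10.9% in the knockout. Among the members, Itgb3 lost its call in both genotypes, and Itga5 and Icam1 lost theirs in the knockout.

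**Figure D1:**
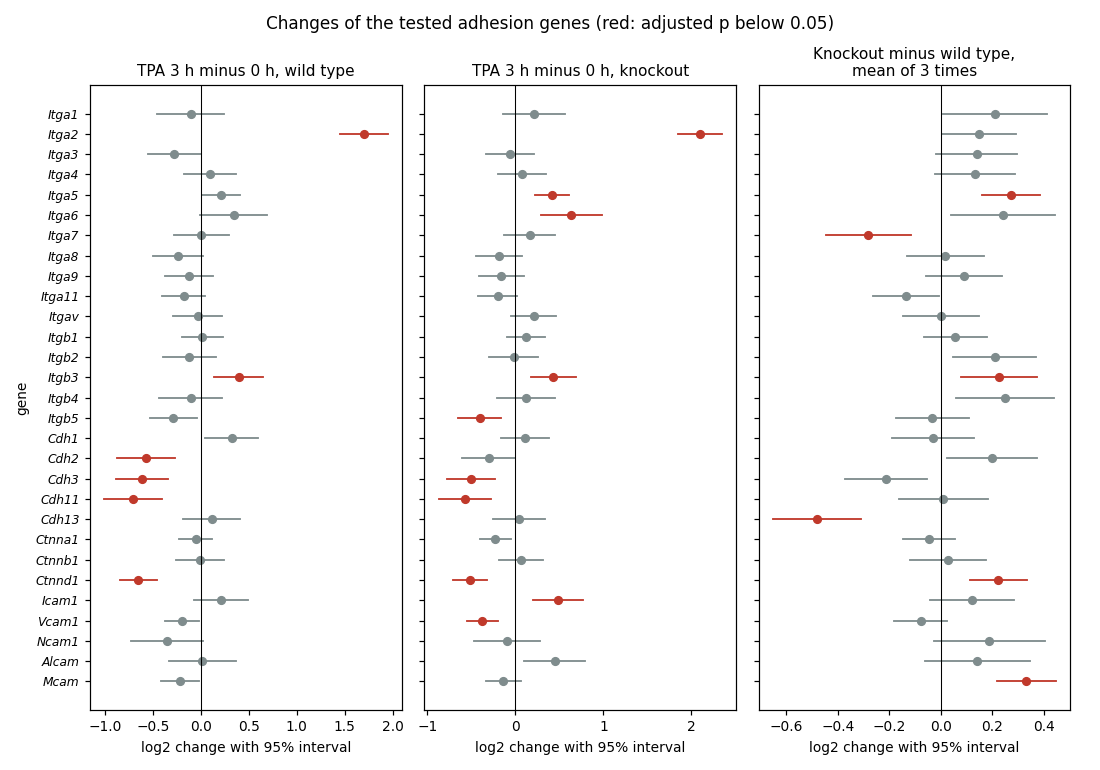
Log2 change (points) with 95% confidence interval (lines) of each of the 29 tested adhesion genes, for TPA at 3 h in wild type, TPA at 3 h in the knockout, and knockout minus wild type as the mean of the 3 times, with adjusted p below 0.05 in red. Itga2 lies far to the right in both TPA panels, at 1.70 and 2.10, while Cdh3, Cdh11 and Ctnnd1 lie to the left of 0 in both.

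Itga2, the alpha subunit of the collagen receptor found on platelets and epithelium, had the widest TPA change of the 29 members. Its normalized log2 intensities in wild type were 4.48, 4.24 and 4.37 at 0 h, 4.84, 4.33 and 4.53 at 1 h, and 6.19, 5.95 and 6.04 at 3 h. In the knockout they were 4.28, 4.55 and 4.44 at 0 h, 4.49, 4.53 and 4.46 at 1 h, and 6.38, 6.55 and 6.62 at 3 h. All 6 arrays at 3 h lay above every earlier array, and the 3 knockout arrays at 3 h lay above the 3 wild-type ones. Itga2 was detected on no array at 0 h, on 1 array at 1 h and on all 6 at 3 h, so that it passed the filter through the arrays where it was high. Its rise at 3 h was therefore at least 2.73-fold in wild type (log2 change 1.70 ± 0.12 SE, adjusted p = 1.22e-09) and at least 3.63-fold in the knockout (2.10 ± 0.12, adjusted p = 2.97e-11). Without background correction the log2 changes were 0.58 and 0.77, still called. At 3 h the knockout exceeded wild type by 0.46 ± 0.12 (1.37-fold, adjusted p = 0.0279), a call that was lost without wild-type array 2 or 3 or knockout array 2 or 3 of that time (adjusted p up to 0.118). The difference between the 3 h responses of the genotypes was 0.40 (95% interval 0.05 to 0.75, adjusted p = 0.428).

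The promoter of Itga2 is shown because no other member rose so far, and that of Ctnnd1 because it was the member with the smallest adjusted p among those that fell. Both lie on the minus strand of GRCm38.p6, and the 250 bases before the RefSeq start are printed 5′ to 3′ in lower case with any match to a searched motif in capitals. The Itga2 window is at chr13:114932101-114932350 and the Ctnnd1 window at chr2:84658978-84659227, the latter upstream of 1 of the gene's listed starts.
Itga2: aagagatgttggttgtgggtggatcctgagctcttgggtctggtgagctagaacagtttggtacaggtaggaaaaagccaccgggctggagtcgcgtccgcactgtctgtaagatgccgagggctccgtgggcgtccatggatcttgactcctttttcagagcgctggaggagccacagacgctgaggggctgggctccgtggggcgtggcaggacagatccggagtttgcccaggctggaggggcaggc
Ctnnd1: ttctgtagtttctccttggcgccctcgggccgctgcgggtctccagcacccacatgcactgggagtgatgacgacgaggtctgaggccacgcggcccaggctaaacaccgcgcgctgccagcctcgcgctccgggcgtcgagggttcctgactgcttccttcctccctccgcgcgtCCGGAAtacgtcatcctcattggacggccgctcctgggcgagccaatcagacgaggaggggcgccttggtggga

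The motifs searched on both strands, in windows from 250 bases before to 50 after each start, were the AP-1 site TGANTCA, the ETS core CCGGAA, the NF-kB consensus and the SRF CArG box. RefSeq's table held 21 promoters for 18 of the 32 members. AP-1 was matched in 2 of the 21 (Itga3 and Itga9), beside 7.81% of all 32851 promoters, and ETS in 4 of the 21 (Ctnnd1, Icam1, Itga3 and Itgb1), beside 14.9%. No member's window matched the NF-kB consensus or the CArG box as searched, which 4.51% and 1.63% of all promoters held. Each motif was searched as a fixed pattern without mismatches, so a site that departs from it at any base was not counted. The lack of a match therefore does not show that a window lacks a binding site. The Itga2 window held none of the 4 motifs, and that of Ctnnd1 held 1 ETS match starting 74 bases before the start. A match describes letters only.

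Among the other alpha subunits, Itga5 and Itga6 rose at 3 h in the knockout. Itga5 measured 9.56, 9.68 and 9.89 in wild type at 0 h, 9.75, 9.83 and 9.95 at 1 h and 9.93, 9.89 and 9.93 at 3 h, against 10.01, 9.88 and 9.85, then 9.99, 10.05 and 10.08, then 10.36, 10.37 and 10.28 in the knockout. The knockout arrays at 3 h lay above all others. The rise was 0.42 ± 0.09 in the knockout (1.34-fold, adjusted p = 0.00255) and 0.21 ± 0.09 in wild type (adjusted p = 0.146), and the responses differed by 0.21 (adjusted p = 0.611). Its other kept probe gave 0.46 in the knockout and 0.35 in wild type, both called over all kept probes.

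Itga6 measured 5.54, 5.33 and 5.53 in wild type at 0 h and 5.70, 5.71 and 6.02 at 3 h. In the knockout it measured 5.56, 5.59 and 5.71 at 0 h and 5.69, 6.45 and 6.63 at 3 h, so that 1 of the 3 treated arrays lay within the untreated range. The log2 change was 0.64 ± 0.17 in the knockout (adjusted p = 0.00983) and 0.34 ± 0.17 in wild type (adjusted p = 0.188), with a difference of responses of 0.29 (adjusted p = 0.696). Without knockout array 2 or 3 of 3 h the call was lost, at an adjusted p of up to 0.0814.

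Of the beta subunits, Itgb3, which pairs with Itgav and in platelets with Itga2b, was called higher at 3 h in both genotypes, close to the detection limit. Its values in wild type were 4.47, 4.57 and 4.52 at 0 h, 4.64, 4.41 and 4.46 at 1 h and 4.86, 4.79 and 5.09 at 3 h. In the knockout they were 4.72, 4.36 and 4.71, then 4.96, 5.08 and 4.93, then 5.06, 5.24 and 4.77. No wild-type array detected it at 0 h or 1 h, and all 3 did at 3 h. The rise was at least 1.23-fold in wild type (0.39 ± 0.12, adjusted p = 0.034) and 0.43 ± 0.12 in the knockout (adjusted p = 0.0175). The wild-type call was lost without any of 5 arrays (all 3 at 0 h, and arrays 1 and 3 of 3 h, adjusted p up to 0.164), and the knockout call without array 2 of 0 h or array 1 or 2 of 3 h (up to 0.119). Neither call was made in the authors' deposited log2 values, with no background correction or with median scaling.

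Itgb5, the beta subunit of a vitronectin receptor with Itgav, was 10.48, 10.45 and 10.63 in the knockout at 0 h and 9.78, 10.40 and 10.18 at 3 h. Treated and untreated arrays did not overlap, and the change was -0.40 ± 0.12 (1.32-fold lower, adjusted p = 0.0198). It became -0.24 with adjusted p = 0.136 without array 1 of 3 h, and the call was also lost without array 3 of 0 h. In wild type Itgb5 went from 10.37, 10.61 and 10.53 to 10.19, 10.24 and 10.22 (-0.29 ± 0.12, adjusted p = 0.107). The partner subunits were not called in any of the 11 comparisons: at 3 h Itgb1 differed from 0 h by 0.01 in wild type and 0.12 in the knockout, and Itgav by -0.03 and 0.21.

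**Figure D2:**
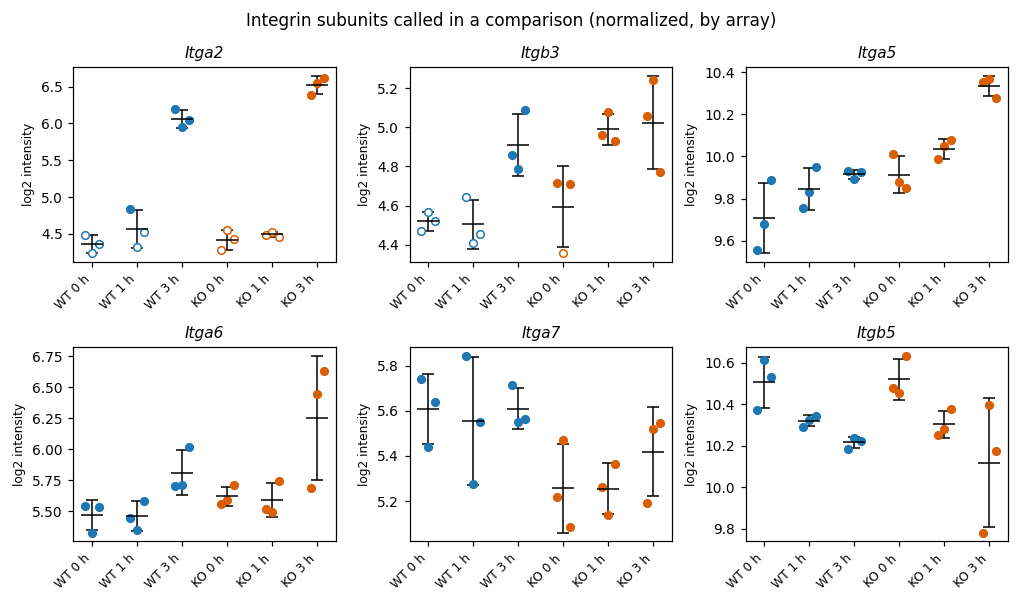
Normalized log2 intensity of the 6 integrin subunits called in at least 1 comparison, by group (WT, wild type; KO, knockout; hours of TPA), with each array as a point (open where not detected) and the mean and SD as bars. Itga2 lies near 4.4 without TPA and at 5.95 or more on all 6 arrays at 3 h.

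Of the 5 tested cadherins, 3 fell at 3 h in wild type and 2 in the knockout, and p120-catenin fell in both. Cdh11, a cadherin typical of mesenchymal cells, measured 7.03, 7.04 and 7.28 in wild type at 0 h, 6.72, 6.79 and 7.34 at 1 h and 6.37, 6.38 and 6.47 at 3 h. The knockout arrays read 6.90, 7.01 and 7.15, then 6.86, 7.12 and 7.12, then 6.22, 6.45 and 6.66. In both genotypes every 3 h array lay below every array of 0 h and 1 h. The 3 h change was -0.71 ± 0.14 in wild type (1.64-fold lower, adjusted p = 0.00133) and -0.57 ± 0.14 in the knockout (1.49-fold lower, adjusted p = 0.00647). Its other kept probe fell by 0.78 in wild type and was not called in the knockout (-0.22, adjusted p = 0.358).

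Cdh3, the placental cadherin of epithelial and some stromal cells, measured 6.66, 6.90 and 7.19 in wild type at 0 h, 6.51, 6.78 and 6.47 at 1 h and 6.39, 6.37 and 6.15 at 3 h. The knockout arrays read 6.60, 6.60 and 6.47, then 6.72, 6.49 and 6.45, then 5.84, 6.20 and 6.14. The 3 h arrays lay below the untreated ones in each genotype. The change was -0.61 ± 0.13 in wild type (1.53-fold lower, adjusted p = 0.00239) and -0.50 ± 0.13 in the knockout (1.41-fold lower, adjusted p = 0.00976), the latter at 0.0631 without array 1 of 3 h.

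Cdh2, or N-cadherin, was 5.79, 5.99 and 5.92 in wild type at 0 h, 5.60, 5.40 and 5.46 at 1 h and 5.21, 5.54 and 5.23 at 3 h, with every treated array below every untreated one. Its change at 3 h was -0.57 ± 0.15 (1.49-fold lower, adjusted p = 0.00898). In the knockout it was 5.83, 5.94 and 5.81 at 0 h and 5.67, 5.60 and 5.39 at 3 h, a change of -0.30 ± 0.15 (adjusted p = 0.179). The responses differed by 0.27 (95% interval -0.16 to 0.70, adjusted p = 0.68). With the mean of all kept probes of Cdh2, the wild-type change was not called (-0.20, adjusted p = 0.104).

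Ctnnd1 measured 8.48, 8.66 and 8.47 in wild type at 0 h, 8.44, 8.50 and 8.48 at 1 h and 7.88, 7.89 and 7.87 at 3 h. The knockout arrays read 8.69, 8.66 and 8.77, then 8.51, 8.79 and 8.71, then 8.17, 8.29 and 8.10. The fall appeared between 1 h and 3 h, with no overlap in either genotype. It was -0.65 ± 0.09 in wild type (1.57-fold lower, adjusted p = 2.6e-05) and -0.52 ± 0.09 in the knockout (1.43-fold lower, adjusted p = 0.000307). The other catenins were not called: at 3 h Ctnna1 changed by -0.06 in wild type and -0.23 in the knockout (adjusted p = 0.066), and Ctnnb1 by -0.01 and 0.06. Cdh1, the epithelial cadherin, was 4.49 to 5.11 over all arrays and not called in any comparison.

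**Figure D3:**
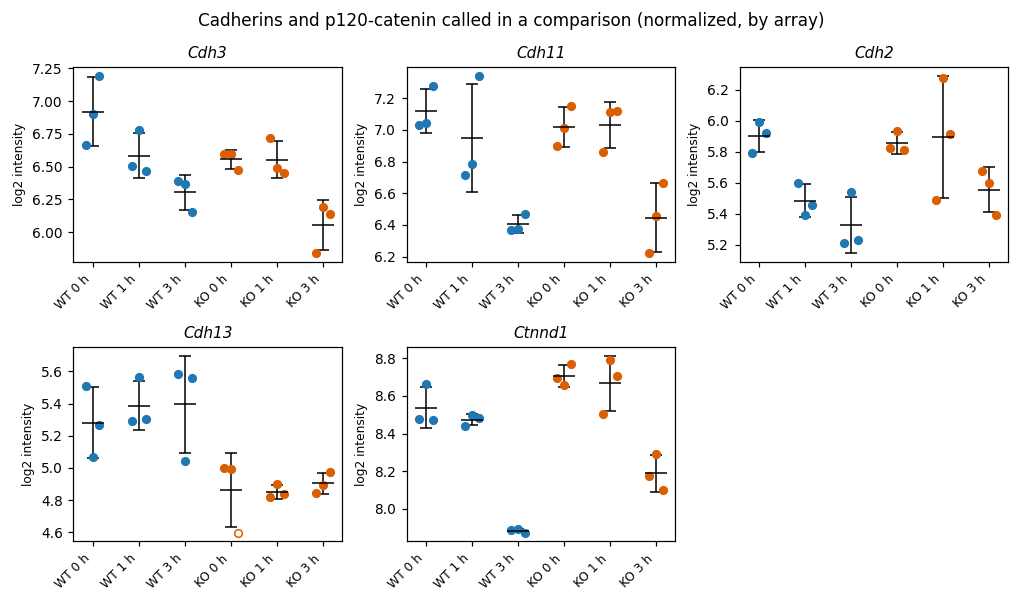
Normalized log2 intensity of the 4 cadherins and of Ctnnd1 called in at least 1 comparison, by genotype and hours of TPA, with arrays as points (open where not detected) and the mean and SD as bars. Cdh11 and Ctnnd1 sit lower at 3 h than at 0 h and 1 h in both genotypes, while Cdh13 sits lower in the knockout at all times.

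Of the 5 immunoglobulin-type molecules, none was called at 3 h in wild type, and Icam1 rose and Vcam1 fell in the knockout. Icam1 was 5.41, 5.05 and 4.92 in the knockout at 0 h, 5.16, 5.22 and 5.11 at 1 h and 5.74, 5.59 and 5.50 at 3 h. In wild type it was 4.87, 5.27 and 5.22, then 4.99, 5.08 and 5.20, then 5.12, 5.29 and 5.58. The 3 h arrays cleared the untreated ones in the knockout and overlapped them in wild type. The change was 0.49 ± 0.14 in the knockout (1.40-fold, adjusted p = 0.0146) and 0.21 ± 0.14 in wild type (adjusted p = 0.348), and the responses differed by 0.28 (adjusted p = 0.654). The knockout call was lost without array 2 or 3 of 0 h or array 1 of 3 h (adjusted p up to 0.0951). The Icam1 promoter, at chr9:21015690-21015939 on the plus strand of GRCm38.p6, is shown because it held 3 of the ETS matches (capitals), starting 86, 65 and 39 bases before the start.
Icam1: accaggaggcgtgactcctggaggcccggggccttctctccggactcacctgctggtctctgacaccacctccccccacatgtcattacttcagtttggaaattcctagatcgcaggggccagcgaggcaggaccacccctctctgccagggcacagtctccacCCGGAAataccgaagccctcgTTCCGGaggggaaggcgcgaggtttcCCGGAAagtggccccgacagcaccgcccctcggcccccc

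Vcam1 was 9.25, 9.17 and 9.23 in the knockout at 0 h, 9.05, 9.05 and 8.96 at 1 h and 8.76, 8.88 and 8.89 at 3 h, with no overlap between times. In wild type it was 9.16, 9.18 and 9.30 at 0 h, 9.08, 9.0 and 9.19 at 1 h and 8.97, 8.99 and 9.08 at 3 h, where the 3 h arrays also lay below the untreated ones. The 3 h change was -0.37 ± 0.08 in the knockout (1.30-fold lower, adjusted p = 0.00306) and -0.20 ± 0.08 in wild type (adjusted p = 0.13), with a difference of -0.18 (adjusted p = 0.649). Its other 2 kept probes changed by -0.16 and 0.05 in the knockout and were not called.

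Ncam1, the neural cell adhesion molecule, was lower at 3 h than at 1 h as the mean of both genotypes (-0.36 ± 0.13, adjusted p = 0.048). Its 1 h values were 10.16, 9.75 and 10.56 in wild type and 10.62, 10.33 and 10.62 in the knockout, and its 3 h values 9.90, 9.88 and 9.81 and 10.06, 10.12 and 10.10. The spread at 1 h exceeded that at 3 h, and the call was lost without any 1 array other than the 3 of wild type at 0 h and array 2 of either genotype at 1 h (adjusted p up to 0.151). The 7 members called in this comparison (24.1%, against 20.2% of all genes, 10.6% higher and 9.59% lower) were otherwise members already called at 3 h: Itga2 (1.76), Itga6 (0.51) and Icam1 (0.34) higher, and Cdh3 (-0.39), Cdh11 (-0.56) and Ctnnd1 (-0.53) lower.

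**Figure D4:**
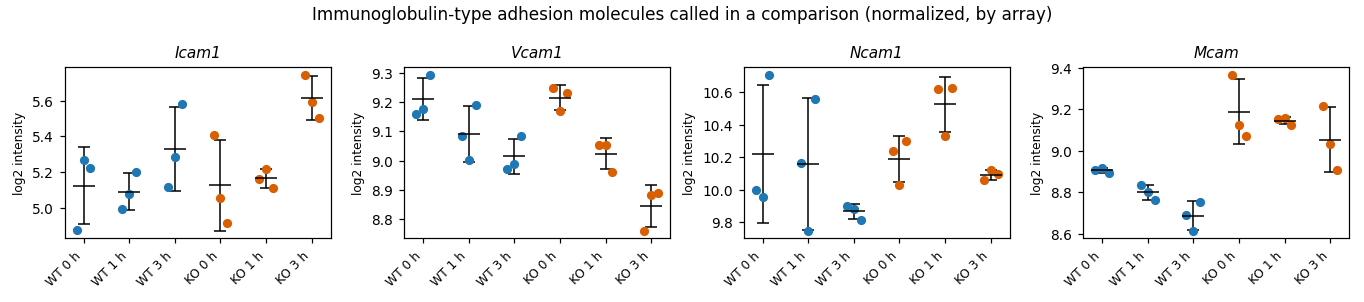
Normalized log2 intensity of the 4 immunoglobulin-type adhesion molecules called in at least 1 comparison, by genotype and hours of TPA, with arrays as points and the mean and SD as bars. Mcam lies at 8.91 or above in every knockout array and at 8.92 or below in every wild-type array.

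At 1 h no member was called in either genotype, where 3.38% of all genes were called in wild type and 5.41% in the knockout. At an unadjusted p below 0.05 there were 3 members in wild type, all lower (Itga8 -0.39, Cdh2 -0.42 and Cdh3 -0.33). In the knockout there were 4 (Itgav 0.27, Itgb1 0.22, Itgb3 0.40 and Vcam1 -0.19). The share of all genes at this unadjusted cut is not given here, so these counts have no base. The smallest adjusted p at 1 h was 0.071, for Itgb3 in the knockout.

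Markers of several cell types, fibroblasts included, also moved at 3 h. Of 8 epithelial markers 4 were tested, and Krt18 and Cldn4 were called higher in both genotypes. The summed normalized intensity of the list in wild type was 218 to 245 at 0 h and 296 to 312 at 3 h. In the knockout it was 222 to 241 and 314 to 353, with 3 of the 8 detected on no array. Of the leukocyte list Cd14 was called higher in both genotypes, with the summed intensity at 1132 to 1262 at 0 h and 1134 to 1257 at 3 h in wild type and at 1124 to 1201 and 1209 to 1286 in the knockout. Of the endothelial list Esam was called higher and Kdr lower in the knockout, where the summed intensity was 179 to 199 at 0 h and 204 to 221 at 3 h, and none was called in wild type (197 to 203 and 200 to 212). Of the 5 tested pericyte or smooth muscle markers Cspg4, and of the 10 tested fibroblast markers Pdgfra, was higher at 3 h in both genotypes, and the fibroblast marker Dcn in the knockout. The fibroblast sums overlapped between 0 h and 3 h, at 17364 to 19459 and 17793 to 18925 in wild type and 17211 to 19202 and 17891 to 19259 in the knockout. The pericyte or smooth muscle sums also overlapped, at 15890 to 17385 and 17036 to 18468 in wild type and 17266 to 17670 and 17415 to 17956 in the knockout. Their part in the changes of Itga2, Cdh3 and the other members was not tested.

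Comparing the genotypes at each time, the members that differed were few. At 0 h none was called, beside 1.85% of all genes. There were 5 at an unadjusted p below 0.05, a cut at which the share of all genes is not given here. At 1 h 1 was called, Itgb3, higher in the knockout by 0.49 ± 0.12 (at least 1.26-fold, adjusted p = 0.0407), beside 2.20% of all genes, of which 1.09% higher. The call was lost without any of the 6 arrays of 1 h, wild-type array 2 of 0 h or wild-type array 1 of 3 h (adjusted p up to 0.138). It was also lost in 6 of 8 other settings. These were the deposited series matrix values, no background correction, median scaling, no detection filter, the replicate number as a block, and only the arrays compared. At 3 h 3 members were called (10.3%, against 4.97% of all genes and 2.44% called higher), all higher in the knockout: Itga2, Itga5 (0.42 ± 0.09, 1.34-fold, adjusted p = 0.00986) and Mcam (0.37 ± 0.10, 1.29-fold, adjusted p = 0.0277). With median scaling, none of the 3 was called, where 1.64% of all genes were.

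As the mean of the 3 times, 6 members differed between genotypes (20.7%, against 11.4% of all genes, 5.26% higher and 6.12% lower). Itga5, Itgb3, Ctnnd1 and Mcam were higher in the knockout and Itga7 and Cdh13 lower. With median scaling there were 0 higher and 5 lower, with the median of all genes at -0.16 and with 1.29% of all genes called higher and 32.4% lower, and only Itga7 and Cdh13 of the 6 were called. The median difference over the 29 members was 0.12, beside -0.01 over all genes, and 21 of the 29 were above 0.

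Cdh13, a cadherin without a transmembrane part that is anchored by a lipid, differed most. Its wild-type values were 5.51, 5.07 and 5.27 at 0 h, 5.29, 5.56 and 5.30 at 1 h and 5.58, 5.05 and 5.56 at 3 h. The knockout arrays read 5.0, 4.99 and 4.60 (the last not detected) at 0 h, 4.82, 4.90 and 4.84 at 1 h and 4.85, 4.90 and 4.97 at 3 h. All 9 knockout arrays lay below all 9 wild-type arrays. The mean difference was -0.48 ± 0.08 (1.40-fold lower, adjusted p = 0.000441), and its other kept probe gave -0.38 (adjusted p = 0.010). At single times the differences were -0.42, -0.53 and -0.49, with adjusted p of 0.149, 0.0539 and 0.0527. Without background correction the mean difference was -0.14, still called.

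Mcam, also called CD146 and typical of endothelium and perivascular cells, measured 8.91, 8.92 and 8.89 in wild type at 0 h, 8.84, 8.80 and 8.76 at 1 h and 8.69, 8.62 and 8.75 at 3 h. The knockout arrays read 9.37, 9.13 and 9.07, then 9.15, 9.16 and 9.12, then 9.22, 9.03 and 8.91. At each time the knockout arrays lay above the wild-type ones. The mean difference was 0.33 ± 0.05 (1.26-fold, adjusted p = 0.00032), and its other 2 kept probes gave 0.42 and 0.39, both called. The call at 3 h alone was lost without any of 5 of that time's 6 arrays (all but knockout array 3) (adjusted p up to 0.125).

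Itga7, the laminin receptor subunit of muscle, was 5.74, 5.44 and 5.64 in wild type at 0 h, 5.84, 5.28 and 5.55 at 1 h and 5.71, 5.55 and 5.56 at 3 h, and 5.22, 5.47 and 5.08, then 5.26, 5.14 and 5.37, then 5.19, 5.52 and 5.55 in the knockout. The groups overlapped at 0 h and at 1 h. The mean difference was -0.28 ± 0.08 (1.22-fold lower, adjusted p = 0.0242). The call was lost without knockout array 3 of 0 h, 2 of 1 h or 1 of 3 h, or wild-type array 1 of 1 h or 3 h (adjusted p up to 0.0572). It was also lost with the deposited series matrix values and with no background correction. The muscle marker Des was also called lower in the knockout, with the summed intensity of the 5 muscle markers at 309 to 360 over the wild-type arrays and 263 to 309 over the knockout arrays; Myod1, Myf5 and Actc1 were detected on no array, and the part of such cells in the Itga7 difference was not tested.

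Itga5 was higher in the knockout by 0.27 ± 0.05 as the mean (1.21-fold, adjusted p = 0.00173), and its other probe by 0.30. Ctnnd1 was higher by 0.22 ± 0.05 (1.17-fold, adjusted p = 0.00771), but its other 2 kept probes gave -0.06 and -0.01. Itgb3 was higher by 0.23 ± 0.07 (adjusted p = 0.0451). The call was lost without any 1 array other than wild-type array 1 of 1 h or 3 of 3 h and knockout array 2 of 0 h or 3 of 3 h (adjusted p up to 0.0923). It was also lost in 5 of 7 other settings. These were the deposited series matrix values, no background correction, median scaling, no detection filter and the replicate number as a block. Of the 5 tested pericyte or smooth muscle markers, only Myh11 was called between genotypes as the mean, higher in the knockout. The summed intensity of that list overlapped, at 15890 to 18468 over the wild-type arrays and 17126 to 18429 over the knockout arrays. As the mean, the fibroblast marker Pdgfra was lower in the knockout, and the epithelial markers Krt18 and Cldn4 were called in opposite directions. The part of such cells in the Mcam difference was not tested.

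The direct test of whether the knockout changed the TPA response called no member. Of all genes, 0.0275% were called for the 1 h response and 0.358% for the 3 h response. At an unadjusted p below 0.05 there were 2 members for the 1 h response and 1 (Itga2) for the 3 h response. The share of all genes at that cut is not given here. The differences of the 3 h responses ran from -0.21 (Cdh1) to 0.43 (Alcam, 95% interval -0.06 to 0.93, adjusted p = 0.566). Calls made in the knockout and not in wild type, as for Itga5, Itga6, Itgb5, Icam1 and Vcam1, were thus not shown to differ between genotypes.

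Of the 29 tested members 15 (51.7%) were called in at least 1 comparison, beside 35.8% of all genes, and 14 in none. Among those 14, the collagen receptor subunit Itga11 (10.40 to 10.87 over all arrays), Itgb1 (10.14 to 10.67), Ctnna1 (12.25 to 12.59), Ctnnb1 (10.98 to 11.63), Itgav (8.39 to 9.02), Alcam (7.75 to 8.83), Itga3 (7.19 to 7.83), Itga9 (5.65 to 6.21) and Itga1 (4.79 to 5.58) were detected on every array. Itga4 (4.16 to 4.80), Itga8 (4.29 to 4.92), the leukocyte subunit Itgb2 (4.32 to 5.10), the laminin receptor subunit Itgb4 (4.42 to 5.20) and Cdh1 were detected on some. These ranges belong to different probes and give no order of levels between genes. Itgb7 and Itgb8 had no probe detected on any array, and the endothelial cadherin Cdh5 was detected on 1, so these 3 were not tested.

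Probes of the same gene did not always move together. The probe used for Itga6, ILMN_1231492, was not called at 1 h (-0.01 in wild type and -0.03 in the knockout), whereas ILMN_1236600, annotated to a cDNA clone, read 4.50, 4.84 and 4.61 at 0 h and 5.98, 5.60 and 5.76 at 1 h in wild type. In the knockout it read 4.59, 4.62 and 4.46 at 0 h, detected on none of these arrays, and 6.07, 5.39 and 5.53 at 1 h. Its 1 h change was 1.13 ± 0.15 in wild type (adjusted p over all kept probes = 4.55e-05) and at least 2.01-fold in the knockout (1.11 ± 0.15, adjusted p = 4.13e-05). From 1 h to 3 h it fell by 0.66 as the mean of both genotypes, where the used probe rose by 0.51.

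For Ctnnb1, the used probe ILMN_2994460 was not called, while the clone-derived probe ILMN_1255869 read 5.96, 6.38 and 6.01 at 0 h, 6.66, 6.75 and 6.63 at 1 h and 6.83, 6.57 and 6.31 at 3 h in wild type. In the knockout it read 6.09, 6.20 and 6.27, then 6.88, 6.83 and 6.72, then 6.34, 6.90 and 6.76. Every 1 h array lay above the untreated arrays of its genotype. Over the members called at 3 h, other kept probes had the sign of the used probe in 6 of 6 cases in wild type and 9 of 10 in the knockout, and 4 and 5 of them were called. For 3 h against 1 h the sign was shared in 7 of 10 cases, with 3 called. Between genotypes it was shared in 3 of 3 cases at 3 h (1 called) and in 4 of 6 as the mean of 3 times (4 called).

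**Figure D5:**
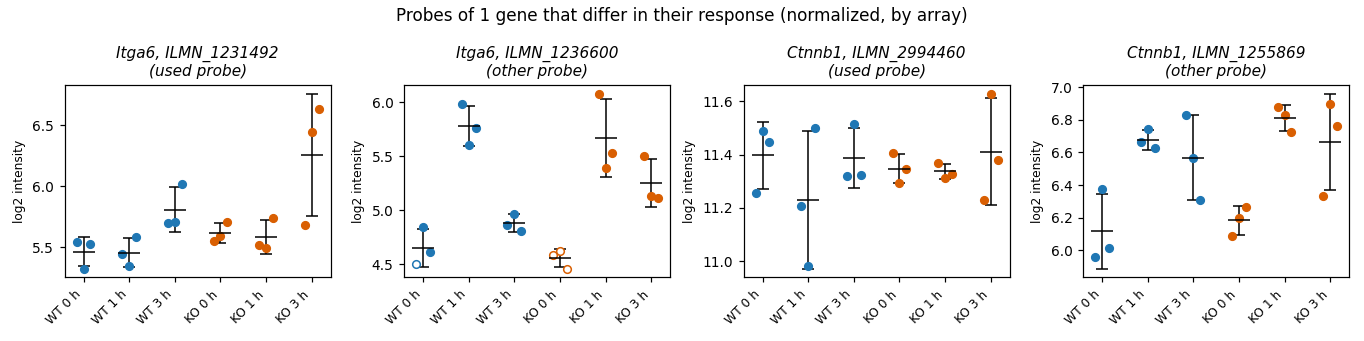
Normalized log2 intensity of the used probe and of the disagreeing probe of Itga6 and Ctnnb1, by genotype and hours of TPA, with arrays as points (open where not detected) and the mean and SD as bars. The other Itga6 probe peaks at 1 h, at 5.39 to 6.07, where the used probe stays between 5.35 and 5.74.

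Adhesion genes outside the 32 were counted in 6 further lists, to be read beside the shares of all tested genes. At 3 h, 16.0% of all genes were called in wild type (7.81% higher, 8.19% lower). In the knockout 18.4% were called at 3 h (8.25% higher, 10.1% lower). Between genotypes as the mean, 11.4% were called (5.26% higher, 6.12% lower). At 1 h in wild type 3.38% were called, and 35.8% in at least 1 comparison. The difference of the 3 h responses between genotypes called no gene of any of the 6 lists, beside 0.358% of all genes. Among integrin adhesion adaptors and kinases, 23 of 30 were tested, and at 3 h 1 rose and 6 fell in wild type and 1 rose and 4 fell in the knockout. Lims2, an adaptor that binds integrin-linked kinase, fell by 1.76 ± 0.10 in wild type and 1.94 ± 0.10 in the knockout. Bcar1 (p130Cas, a docking protein of focal adhesions) fell by 1.64 ± 0.11 and 1.31 ± 0.11, and already by 0.54 at 1 h in both. Pxn (paxillin) rose by 0.84 ± 0.11 and 1.26 ± 0.11, and Fermt2 (kindlin-2, an integrin activator) fell by 0.51 in both.

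Of the matrix ligands of integrins, 19 of 26 were tested, with 1 higher and 3 lower at 3 h in each genotype. Ccn1, a matricellular ligand, fell by 2.26 ± 0.13 in wild type and 1.83 ± 0.13 in the knockout, Ccn2 by 1.05 and 0.93, and Thbs1 (thrombospondin-1) by 0.93 and 0.86. The ligand that rose was Tnc (tenascin-C), by 0.36 and 0.31, a call lost in wild type without array 1 or 2 of 0 h or 1 of 3 h and in the knockout without array 2 or 3 of 0 h or 1 or 3 of 3 h. Between genotypes as the mean of 3 times, 4 ligands were higher in the knockout and 1 lower: Fn1 (fibronectin) by 0.40 ± 0.06, Tnc by 0.32 and Col4a2 by 0.27 were among the higher ones, while Tgfbi differed by -0.34.

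All 10 tetraspanins and lateral partners were tested, of which 3 rose and 1 fell in wild type at 3 h and 2 rose in the knockout. Cd9, a tetraspanin that binds integrins, rose by 0.57 ± 0.13 and 0.68 ± 0.13, and the wild-type call was lost with median scaling (0.17, adjusted p = 0.403).

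Of the other cadherins and junction partners, 17 of 28 were tested, with 3 higher and 6 lower at 3 h in wild type and 4 higher and 5 lower in the knockout. Pkp2, a desmosomal plaque protein, fell by 1.46 ± 0.10 and 1.62 ± 0.10, and Nectin2 by 0.99 ± 0.15 and 0.67 ± 0.15. Fat1 (-0.66) and Tjp1 (-0.63) were named as lower in wild type, and Pcdh7 (1.07) and Cdh6 (0.79) as higher in the knockout. Up to 4 genes per comparison were named, so their changes in the other genotype are not given here. None of the 17 was called for a difference of the 3 h responses. At 0 h Pcdh7 already differed by -0.61 in the knockout (adjusted p = 0.0228), a call lost without any of 5 single arrays. The Fat1 call was lost with the mean of all kept probes (adjusted p = 0.148). As the mean of 3 times Cdh6 was higher in the knockout by 0.49 ± 0.08, and Cdh4, Pcdh7 and Ctnnal1 differed by -0.43, -0.36 and -0.33.

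Of 22 other immunoglobulin-type molecules 10 were tested: none was called at 3 h in wild type (0 called also at 1 h), and Nrcam (0.55) and Esam (0.52) rose and Bcam (-0.35) fell in the knockout. The Nrcam call was lost without array 2 of 0 h, that of Esam without array 1 or 2 of 0 h or 2 or 3 of 3 h, and that of Bcam without any of 5 of the 6 arrays compared (all but array 2 of 3 h). Nrcam was higher in the knockout by 0.62 ± 0.09 as the mean of 3 times. The 4 tested of 9 other integrin subunits were not called in any of the 11 comparisons. With median scaling the 3 h calls of Nrcam, Esam and Bcam in the knockout and of Tnc in both genotypes were lost, as were the mean genotype differences of Tnc and Col4a2.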

How the data were processed

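Total RNA of 18 samples was measured on Illumina mouse bead arrays, 3 per genotype and time. Per the file headers, the authors' deposited table pairs an intensity with its detection p-value for 45281 probes. The deposited series matrix holds log2 values (lowest rank correlation with the intensities 1), used only as an alternative. Its background treatment and centring, the genome build and the summary software are not given in the sources used here.

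Background correction, quantile normalization (offset 16) and the log2 step were done by neqc, which reads the background from the detection p-values (limma 3.58.1, R 4.3.3). Probes with a detection p below 0.05 on at least 3 arrays were kept (20239, of which 17288 carried 1 symbol), and the brightest kept probe stood for each of 10902 genes. limma's moderated test used 6 group means over all arrays (12 residual degrees of freedom). Each of the 11 comparisons had its own Benjamini-Hochberg adjustment over all genes, and genes with an adjusted p below 0.05 were called. Other kept probes were tested over all 20239. Where a group detected a probe on no array, the fold is a lower bound, set against the higher of each array's lowest detected signal and the probe's own. The number of arrays limits the precision, and fold changes of dim probes are understated by the offset.

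Members called in any comparison were described with their values and the rest by range. Of each further list, up to 4 called genes with the widest change per comparison were eligible to be named. The members and lists were chosen with earlier results of these data known. The labels do not say that shared replicate numbers pair samples, and the numbers were not taken as pairs. Alternatives covered the source of values, background correction, normalization, detection filter, probes per gene, replicate block, arrays in the fit, single arrays left out and an added 1.5-fold threshold. Promoters came from RefSeq, GRCm38.p6.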

Additional observations from a re-analysis of the deposited data

Results flagged for a closer look

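The 13 values below come from kept probes that were not the brightest of their gene and that were called higher over all kept probes, where the probe used for the gene was not. With 3 arrays in each group, no array was tested as an outlier.

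For Itga6, the clone-derived probe ILMN_1236600 was higher at 1 h by 1.13 in wild type (adjusted p = 4.55e-05) and 1.11 in the knockout (adjusted p = 4.13e-05), and ILMN_1223670 by 0.50 in the knockout (adjusted p = 0.0324), detected on 2 of 3 arrays at 1 h and on none at 0 h. The used probe changed by -0.01 and -0.03. For Ctnnb1, ILMN_1255869 was higher by 0.56 at 1 h and 0.45 at 3 h in wild type (adjusted p = 0.037 and 0.0441) and by 0.63 and 0.48 in the knockout (adjusted p = 0.0115 and 0.0275), where the used probe changed by -0.17 to 0.06. For Itga5, ILMN_2670172 was higher by 0.35 at 3 h in wild type (adjusted p = 0.0307), and the used probe by 0.21.

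Between genotypes, Ncam1 probe ILMN_2722864 was higher in the knockout by 0.50 at 0 h (adjusted p = 0.0321), 0.59 at 3 h (adjusted p = 0.00439) and 0.50 as the mean of 3 times (adjusted p = 3.17e-05), and ILMN_3102825 by 0.43 as the mean (adjusted p = 0.000622). The brighter Ncam1 probe used above differed by 0.19 as the mean (adjusted p = 0.285). ILMN_2722864 read 6.81 to 7.36 over the wild-type arrays and 7.46 to 7.84 over the knockout arrays, without overlap. Mcam probe ILMN_1229960 was higher in the knockout at 1 h by 0.46 (adjusted p = 0.0431), and the used probe by 0.35 (adjusted p = 0.0626). Which of a gene's transcripts each probe reads was not tested.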

How the results depend on the processing

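The 33 called member changes were each followed under alternative settings, which made 881 pairs of a change and a setting. Of these pairs 776 kept sign and call, 104 lost the call and 1 reversed. The reversed change was Itga6 at 3 h against 1 h, at -0.093 with the mean of all kept probes. The 84 list changes made 2252 such pairs, of which 163 lost the call and 1 reversed. That was Plaur at 3 h in wild type, at -0.043 with median scaling. The 3 h changes of Itga2, Cdh11 and Ctnnd1 in both genotypes, that of Cdh3 in wild type and the mean difference of Cdh13 kept their call in all settings run other than the added 1.5-fold threshold, which Cdh11 and Ctnnd1 in the knockout (1.49- and 1.43-fold) and Cdh13 (1.40-fold) did not reach.

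Counts of members called that moved by over 1.5 times were these. With median scaling, 3 were called at 1 h and 14 at 3 h in wild type, where 12.6% and 44.2% of all genes were. In the knockout 1 was called at 1 h, beside 12.7% of all genes. Between genotypes 3 were called at 0 h and 0 at 3 h, beside 14.2% and 1.64%. With this scaling the median of all genes moved by -0.24 and -0.31 in wild type and -0.23 and -0.12 in the knockout. Between genotypes it moved by -0.22 at 0 h and at 1 h. For the settings that follow, including the left-out arrays and the replicate block below, the share of all genes called is not given here. A move in these counts therefore cannot be told from a move over all genes. With every kept probe, 2 were called at 1 h and 10 at 3 h in wild type, 2 at 1 h in the knockout and 1 at 0 h between genotypes. With the mean of kept probes, 2 were called at 1 h in wild type, 1 at 1 h in the knockout, and 1 at 0 h and 4 at 1 h between genotypes. With a detection p below 0.01 on at least 6 arrays, 2 were called at 1 h and 5 at 3 h between genotypes. With only the arrays compared, 0 and 1 were. With the deposited series matrix values, and likewise with no background correction, 1 was called at 0 h between genotypes. An added 1.5-fold threshold left 2 at 3 h in the knockout, 1 at 3 h against 1 h, and 0 between genotypes at 1 h, at 3 h and as the mean. The cause of these moves was not tested.

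Leaving out 1 array at a time gave 0 calls at 1 h and 5 to 8 at 3 h in wild type, 0 to 1 and 7 to 11 in the knockout, 6 to 8 at 3 h against 1 h, and, between genotypes, 0 at 0 h, 0 to 2 at 1 h, 1 to 4 at 3 h and 4 to 7 as the mean. With the replicate number as a block, 6 were called at 3 h in wild type, 10 in the knockout and 5 between genotypes as the mean. Over 45 same-numbered pairs the correlation of deviations ran from -0.075 to 0.428, with 10 over 0.1; all 3 pairs of wild type at 0 h with the knockout at 3 h were over 0.1 (0.137 to 0.320), which was so for no other 2 groups, and 12 of 18 arrays correlated best with an array of their own number. A slide block was not run, since the files used here name no slide. Low signal limits Itga2, Itgb3, Itga4, Itga8, Itgb2, Itgb4, Cdh1 and Cdh13, which were not detected on all arrays.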
